A study of Mus musculus with 4 samples.

Results

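The regions described here are 612 of the 6371 in the deposited Ring1b table (9.61%), packed into 5 blocks on mouse chromosomes 4, 5, 8, 11 and 17. They were chosen by start position on build mm9: chromosome 5 from 15.00 to 15.20 Mb (39 regions), chromosome 8 from 19.71 to 20.04 Mb (364), chromosome 11 from 3.02 to 3.11 Mb (189), chromosome 17 from 3.07 to 3.09 Mb (14) and chromosome 4 from 79.648 to 79.651 Mb (6). These bounds were drawn around closely spaced regions of high and nearly equal level, so the level and the ratio of the 2 libraries chose the members. Both are given below as descriptions, and no test was made on them.

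Ring1b was profiled by chromatin immunoprecipitation and sequencing (ChIP-seq) in C3H10T1/2 cells, a mesenchymal progenitor line derived from C3H mouse embryos, at passages 10 to 15. All cells carried a stably expressed H3.3 histone with a FLAG-HA tag. In the control cells this H3.3 was wild type (WT), and in the others its lysine 36 was replaced by methionine (K36M). There was 1 Ring1b library for each form, so no replicate error exists and p-values cannot be given. The series also has 2 input libraries (sheared chromatin taken before the antibody step), whose values were not analysed here. The table lists regions associated with peaks of the WT library. Values are reads in a region per 1000000 reads (RPM), with 1 read worth 0.0335 RPM (WT) and 0.0317 RPM (K36M).

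Ring1b is the ubiquitin ligase subunit of Polycomb repressive complex 1, which places ubiquitin on histone H2A and helps keep developmental genes silent. In progenitor cells its binding typically forms broad domains over the CpG-rich starts of such genes. Where a reference genome holds fewer copies of a repeated sequence than the cells do, reads from all the copies can stack up on the listed ones, with an antibody or without. A ChIP library therefore needs its input library to separate binding from such stacking, and for these blocks that comparison was not made. The label "repeat-like" was not checked against sequence either, since no mm9 sequence or repeat annotation was used here.

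The blocks consist of narrow pieces laid end to end. Of the 612 regions, 405 (66.2%) were 200 bp wide and 138 (22.5%) were 400 bp wide, against 5.57% and 18.1% of the 5759 regions outside the blocks. The median width was 200 bp inside and 3600 bp outside. No regions overlap, and 573 of the 612 shared a border with another member. Parting the members at every gap over 2000 bp gave 27 runs, and 9 of these runs held 548 members. Regions numbered 375 per 100 kb in the chromosome 4 block, 247 on chromosome 11, 194 on chromosome 17 and 111 on chromosome 8, but only 19.98 on chromosome 5. The chromosome 4 and 17 figures are scaled up from 6 regions over 1.6 kb and 14 over 7.2 kb. The listed regions covered 70.9% of the chromosome 11 block, 69.4% of the chromosome 17 block and 75.0% of the chromosome 4 block, but 35.9% of the chromosome 8 block and 10.0% of the chromosome 5 block, which have long gaps. Only 6 members were wider than 1000 bp, the widest being 7200 bp.

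The blocks on chromosomes 11 and 17 lie where the listed part of those chromosomes begins. The first member on chromosome 17, at 3077601, is the first region listed on that chromosome. On chromosome 11 the 189 members follow 3 narrow regions that start at 3000401 and a region that runs from position 1 to 3000400 with 26 WT and 38 K36M reads. Mouse chromosomes are telocentric, and their reference sequence opens with an unsequenced stretch at the centromere. On chromosome 8 the block held 364 of the 665 listed regions (54.7%). It held 36.9% of that chromosome's WT values and 50.4% of its K36M values.

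The chosen bounds left out similar narrow regions on chromosomes 5, 8 and 11. Just left of the chromosome 5 bound, 13 regions between 14933801 and 14996000 summed to 34.1 RPM (WT) and 40.9 RPM (K36M), and their median level was 6.53 and 8.08 RPM per kb. The nearest of them, at 14995601 to 14996000, held 3.82 and 4.06 RPM, and the first member, at 15004401 to 15005000, held 2.35 and 2.28 RPM. On chromosome 8 the nearest region outside, at 19708601 to 19709000, lay 1.2 kb from the block and held 2.24 RPM (WT) and 2.85 RPM (K36M), and the first member, at 19710201 to 19710400, held 2.28 and 1.65 RPM. On chromosome 11, 3 narrow regions from 3000401 to 3004200, left of the block, had medians of 8.54 (WT) and 10.7 (K36M) RPM per kb. The other sides were sparse. To the right, the next listed region lay 3131.2 kb from the chromosome 8 block, 1324.6 kb from the chromosome 5 block, 125.8 kb from the chromosome 11 block and 24.6 kb from the chromosome 17 block. The chromosome 4 block stood alone, with gaps of 3227 kb and 946 kb.

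Per length, the blocks were among the highest levels of the table. The median member stood at 9.74 RPM per kb in WT (quartiles 7.54 and 12.4) and 9.83 in K36M (7.45 and 12.4), against 1.52 and 0.838 outside. Width differs between these sets, so regions of the same width were compared. Among 200-bp regions the WT median was 10.6 RPM per kb in the blocks and 7.20 outside, and the K36M median was 10.6 and 3.33. Among 400-bp regions the WT median was 9.09 in the blocks and 5.03 outside, and the K36M median 8.92 and 1.90. Block regions of 200 bp thus stood 1.47-fold above their counterparts in WT and 3.19-fold above them in K36M. Of the 803 regions of 200 or 400 bp with at least 5 RPM per kb in K36M, 519 (64.6%) were members. That level was reached by 95.6% of the members of these widths and 20.8% of such regions outside. Members were chosen partly by level, so these shares describe the choice.

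The difference from broad regions outside the blocks was larger, but it was not matched for width. Outside the blocks the WT median was 7.20 RPM per kb at 200 bp and 5.03 at 400 bp. The widest member, of 7200 bp, had 0.744 RPM per kb in WT. The 1214 regions over 8000 bp outside the blocks had medians of 0.776 (WT) and 0.520 (K36M) RPM per kb, and none exceeded 4.83 in WT. Members covered 197.2 kb, or 0.677% of the 29.1 Mb in the table, leaving out the region at the start of chromosome 11. They held 4.88% of the table's WT values and 7.76% of its K36M values.

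**Figure D1:**
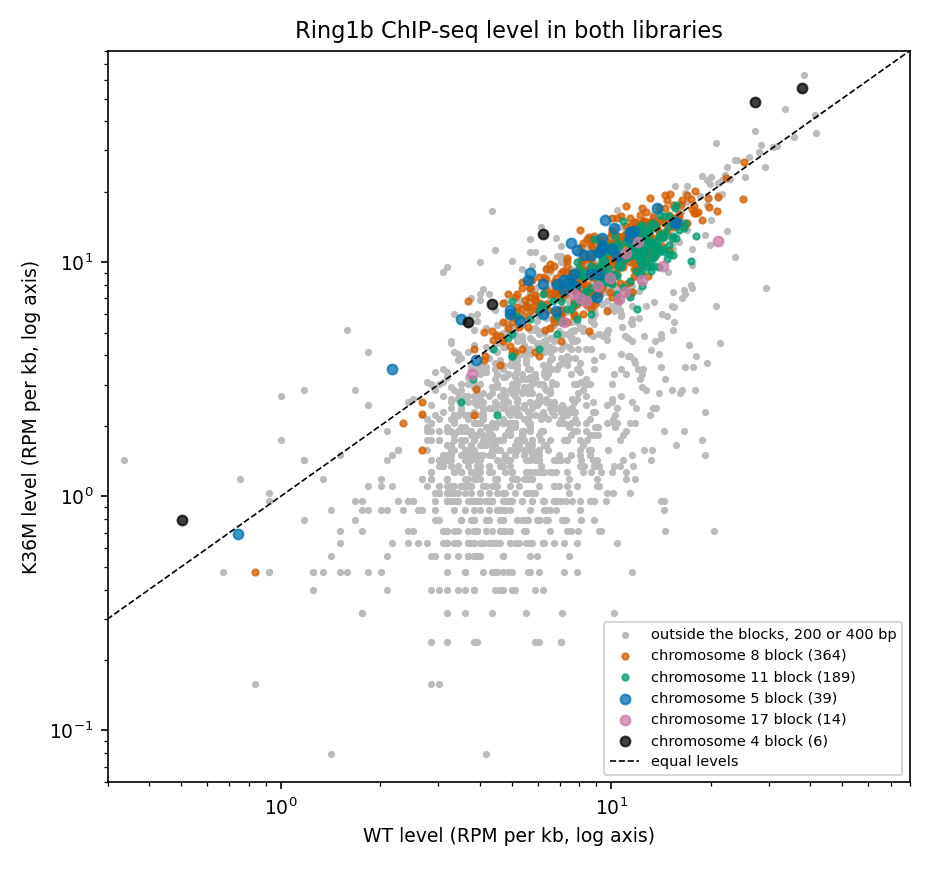
Level of each region in the WT library (x axis) and in the K36M library (y axis), in RPM per kb on log axes; colours mark the 5 blocks, grey points are regions of 200 or 400 bp outside them (4 at 0 in a library or beyond the axes are not drawn), and the dashed line marks equal levels. Members follow the dashed line, and most grey points lie below it.

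Both libraries gave nearly the same total over the members. They summed to 1758 RPM (WT, 52492 reads) and 1773 RPM in K36M (55918 reads), a ratio of 1.01 with an exact 95% counting interval of 0.996 to 1.02. Such intervals cover counting error only, because there was 1 library per form. The reads carry no molecular identifiers and need not stand for separate molecules, so the intervals may be too narrow even for that. The chromosome 8 block holds 59.5% of the members, and without it the ratio was 0.966. The regions outside the blocks summed to 34271 and 21068 RPM, a ratio of 0.615 (interval 0.613 to 0.617).

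Region by region the picture was the same. The median log2 ratio, log2((K36M + 0.1)/(WT + 0.1)), was 0.011 over the members (quartiles -0.20 and 0.20), -0.65 over all 6371 regions and -0.75 over those outside. K36M was lower at 299 members and higher at 313, where it was lower at 85.1% of all regions and higher at 14.9%. Levels were at least 1.5-fold lower at 12 members, where 53.4% of all regions were that low, and at least 1.5-fold higher at 10, where 1.22% of all regions were that high. With the log2 ratios centred on the median of all regions, these counts became 0 and 365. Levels were at least 2-fold lower at 0 members (33.5% of all regions), and a single member was at least 2-fold higher (0.314% of all regions). The counting interval lay below 1 at 31 members (65.1% of all regions) and above 1 at 29 (3.06%), and it included 1 at the other 552. Since the bounds were drawn around regions of equal level, these shares describe the choice.

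**Figure D2:**
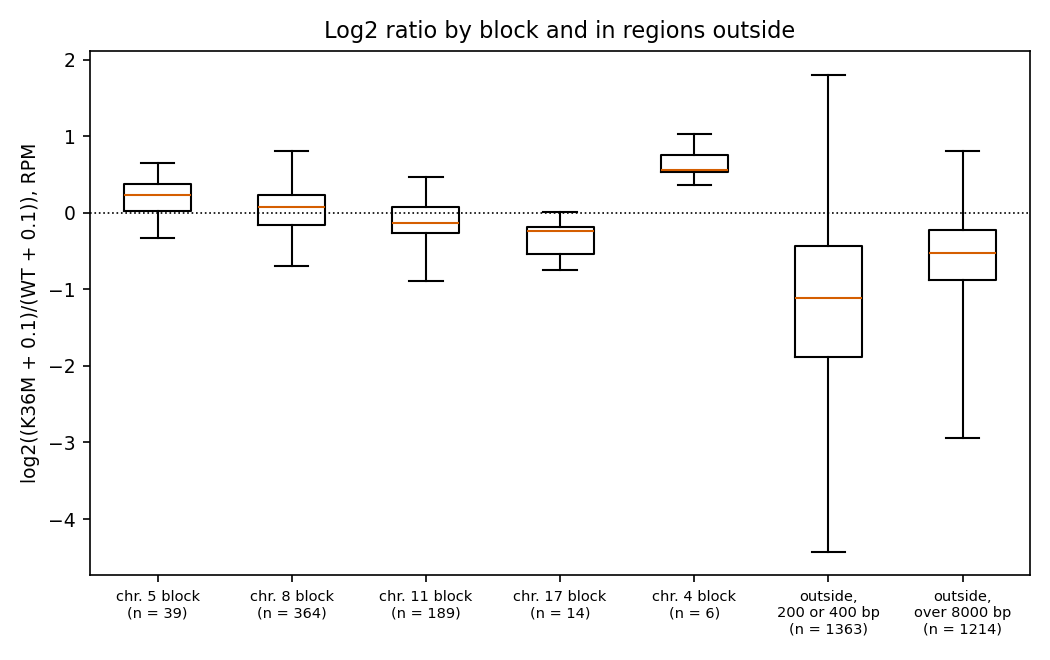
Log2 ratio of K36M to WT (RPM, pseudocount 0.1) for the regions of each block and for regions of 200 or 400 bp and of over 8000 bp outside; boxes show median and quartiles, whiskers the lowest and highest region, and the dotted line marks equal levels. The medians run from -0.24 in the chromosome 17 block to 0.55 in the chromosome 4 block, and are -1.11 and -0.53 in the 2 outside sets.

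The blocks differed from each other by more than the counting error of independent reads. The chromosome 8 block summed to 1031 RPM (WT) and 1070 RPM (K36M), a ratio of 1.04 (interval 1.02 to 1.05). The chromosome 11 block summed to 563 and 523 RPM, a ratio of 0.928 (0.908 to 0.948). The chromosome 5 block summed to 99.5 and 115 RPM, a ratio of 1.16 (1.10 to 1.21). K36M was higher at 31 of the 39 chromosome 5 regions, where it was higher at 14.9% of all regions. It was lower at 123 of the 189 chromosome 11 regions (65.1%), a share below the 85.1% of all regions. The chromosome 17 block summed to 48.1 and 38.5 RPM, a ratio of 0.799 (0.739 to 0.863), and the chromosome 4 block to 15.9 and 26.1 RPM, a ratio of 1.63 (1.46 to 1.83). Levels were within 1.5-fold at 354 of 364 regions on chromosome 8, 184 of 189 on chromosome 11 and 35 of 39 on chromosome 5. They were so at 13 of 14 on chromosome 17 and 4 of 6 on chromosome 4, against 45.4% of all regions. Members were chosen for nearly equal levels, so these shares describe the choice. The summed ratios of the chromosome 4 and 17 blocks lay farthest from the equal signal of the label. Centred on the median of all regions, the median region of every block lay above 0, by 0.41 (chromosome 17) to 1.21 (chromosome 4) on the log2 scale. No spread between cultures is known, so how far these block differences exceed it was not tested.

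On chromosome 8, the densest region in WT was a 200-bp piece at 19927601 to 19927800, with 5.06 RPM (WT) and 5.36 RPM (K36M), or 25.3 and 26.8 RPM per kb. The interval of its ratio, 1.06, ran from 0.845 to 1.33. Among the better covered regions of the block, those at or above its median level, the lowest log2 ratio was at its right end, 20036601 to 20037000, with 4.02 and 2.85 RPM (ratio 0.710, interval 0.534 to 0.941). The highest was at 20002001 to 20002200, with 2.21 and 3.49 RPM (ratio 1.58, interval 1.15 to 2.17). The widest region, 19859401 to 19863600, held 11.2 and 9.45 RPM. At 2.67 and 2.25 RPM per kb it was well below its block's medians of 9.21 and 9.67. Over the 4 runs of at least 10 regions in this block, the summed ratio lay between 0.965 and 1.06.

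On chromosome 11 the regions fell into 2 runs parted by 18.8 kb. The left run, 3023801 to 3051600 (89 regions), had 269 RPM (WT) and 239.6 RPM (K36M), a ratio of 0.891 (interval 0.863 to 0.920). The right run, 3070401 to 3100200 (100 regions), had 295 and 283 RPM, a ratio of 0.962 (0.934 to 0.990). The intervals of these neighbouring runs do not overlap. The densest region, 3037401 to 3037600, held 3.62 RPM (WT) and 2.60 RPM (K36M) (18.1 and 13.0 RPM per kb). Among the better covered regions, the lowest log2 ratio was at the first region of the block, 3023801 to 3024200, with 4.79 and 2.54 RPM, 1.89-fold lower (interval 1.43 to 2.52). It touches the widest region of the block, 3024201 to 3025600, where 5.36 and 4.44 RPM gave a ratio of 0.828 (interval 0.655 to 1.05). The highest log2 ratio among the better covered regions was at 3091201 to 3091400, with 2.18 and 3.01 RPM (ratio 1.38, interval 0.998 to 1.93).

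The chromosome 5 block had 3 clusters of 8 to 20 regions and 1 lone region, spread over 195 kb. The clusters at 15004401, 15051601 and 15184201 had summed ratios of 1.19, 1.16 and 1.14, each with an interval above 1 (1.08 to 1.31, 1.03 to 1.31 and 1.07 to 1.22). Its widest region, 15188001 to 15195200, was unlike the rest, with 5.36 RPM (WT) and 4.98 RPM (K36M) at only 0.744 and 0.691 RPM per kb, a density close to that of broad regions outside. It touches the densest region of the block, 15195201 to 15195400, which held 3.15 and 2.98 RPM (15.7 and 14.9 RPM per kb, 94 reads in each library). Among the better covered regions of the block, the highest log2 ratio (with the pseudocount) was at the last region, 15199401 to 15199600, with 1.91 and 3.04 RPM (ratio 1.59, interval 1.14 to 2.25). The lowest among them was at 15185001 to 15185400, with 2.71 and 2.47 RPM (interval 0.659 to 1.26).

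On chromosome 17, K36M was lower at 13 of 14 regions, where 85.1% of all regions were lower, and 5 of the 14 intervals lay below 1, where 65.1% of all intervals did. The region with the highest level per kb in WT, 3082601 to 3082800, also had the lowest ratio, with 4.22 RPM (WT) and 2.47 RPM (K36M) (21.1 and 12.4 RPM per kb), 1.71-fold lower (interval 1.28 to 2.29). The region close by at 3082001 to 3082400 was the exception, with 4.82 and 4.88 RPM (interval of the ratio 0.801 to 1.28). The widest, 3080001 to 3080600, held 4.32 and 3.33 RPM. The 8 listed regions within 1 Mb of this block had a median width of 3900 bp, far lower levels per kb (1.27 and 0.811) and a summed ratio of 0.701 (interval 0.652 to 0.755). That interval overlaps only the lower end of the block's own, and whether these ratios differ was not tested.

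The chromosome 4 block had 2 bright pieces of 200 bp with dim ones at their sides. The first bright piece, 79648801 to 79649000, held 7.57 RPM (WT) and 11.1 RPM (K36M), or 37.9 and 55.6 RPM per kb, the highest levels of any member. Its left neighbour at 79648601 held 1.24 and 2.63 RPM and its right neighbour at 79649001 held 0.737 and 1.11 RPM. The second bright piece, 79649801 to 79650000, held 5.43 and 9.70 RPM (27.1 and 48.5 RPM per kb), between 0.871 and 1.33 RPM at 79649601 and 0.101 and 0.159 RPM at 79650001. All 6 were higher in K36M, where 14.9% of all regions were, with log2 ratios of 0.37 to 1.03. Only 3 of the 6 intervals lay above 1, where 3.06% of all intervals did. These were the left edge (ratio 2.12, interval 1.42 to 3.22) and the bright pieces (1.47, interval 1.24 to 1.74, and 1.79, interval 1.47 to 2.18). The dimmest had 3 and 5 reads. The 3 listed regions within 1 Mb, all on its right, went the other way, with a summed ratio of 0.454 (interval 0.375 to 0.548). Of the other blocks, only chromosome 17 also had neighbours with an interval below 1 (ratio 0.701). Listed regions within 1 Mb had summed ratios of 1.198 on chromosome 5 (13 regions), 1.12 on chromosome 8 (2) and 0.99 on chromosome 11 (7). All of those on chromosomes 5 and 8, and 3 of the 7 on chromosome 11, are block-like narrow regions left out by the bounds. The interval lay above 1 for chromosome 5 and included 1 for chromosomes 8 and 11.

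**Figure D3:**
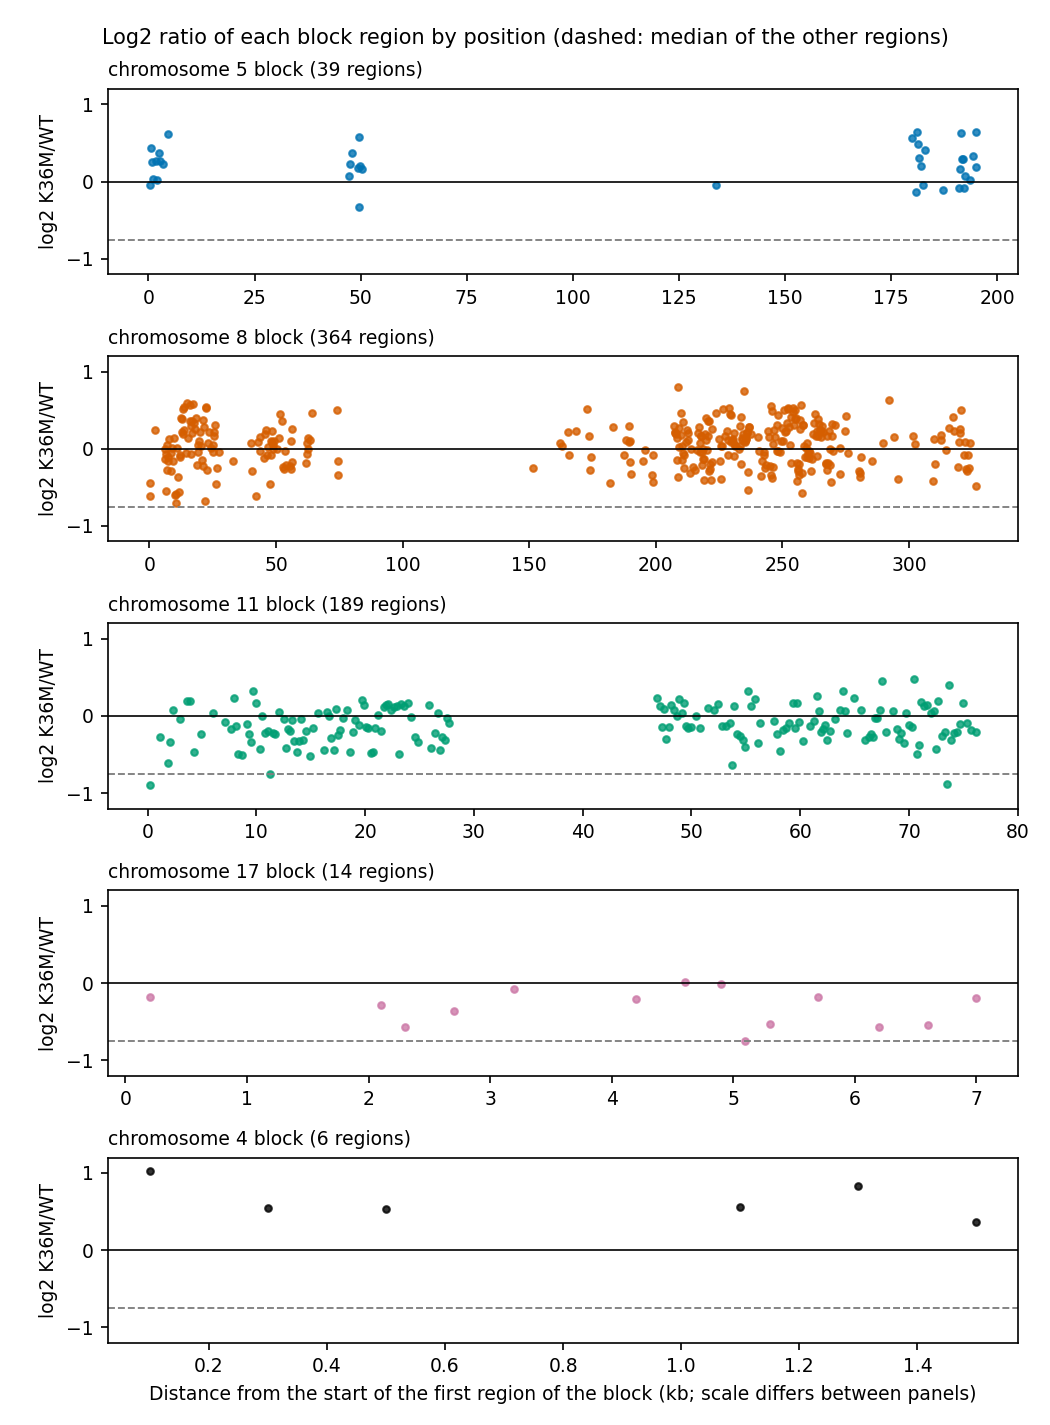
Log2 ratio of K36M to WT for each block region against its distance in kb from the start of the block's first region, with 1 panel per block and its own x scale; the solid line marks equal levels and the dashed line the median of the regions outside the blocks (-0.75). Points scatter around 0 along the chromosome 8 block, lie mostly below 0 on chromosomes 11 and 17, mostly above 0 on chromosome 5 and all above 0 on chromosome 4.

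Within a block the ratios varied less than among regions outside. The bounds were drawn around regions of nearly equal level, so this small spread describes the choice. The Pearson chi-square of the reads per degree of freedom, which is 1 where counting error alone acts, was 1.07 in the chromosome 5 block, 1.20 on chromosome 11, 1.44 on chromosome 17, 1.47 on chromosome 8 and 0.865 on chromosome 4. Over all members, block differences included, it was 1.69. It was 11.4 among regions of 200 or 400 bp outside the blocks and 17.8 among those over 8000 bp, which hold more reads per region. The median member had 74 WT and 80 K36M reads, and the median narrow region outside had 57 and 24. The interquartile range of the log2 ratio was 0.40 over members and 1.45 over those narrow regions.

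Levels per kb also followed each other closely between the libraries. Spearman's rho between WT and K36M levels per kb was 0.859 across the 364 chromosome 8 regions, 0.780 across the 189 on chromosome 11 and 0.895 across the 39 on chromosome 5. It was 0.525 across the 1363 narrow regions outside. Members were chosen for nearly equal levels, so a closer match among them also follows from the choice. The points of each correlation are regions, which are not replicates and come from the same pair of libraries. Touching members resembled each other only in part, with a rho of 0.38 between their log2 ratios over 512 pairs, against 0.84 over 246 touching pairs of narrow regions outside. A narrow spread, as in the blocks, leaves less to correlate.

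Regions of the same width and WT density outside the blocks had other ratios. Among 200-bp regions with 8.21 to 12.9 RPM per kb in WT, the middle range of the members, 80 regions outside had a median log2 ratio of -0.80 and 208 members one of 0.042. For 400-bp regions with 7.39 to 11.7 RPM per kb the medians were -1.37 (166 regions) and -0.0063 (68 members). The contrast depended on the library used for matching. Matched on the mean of both libraries, the outside medians were -0.13 for 200 bp (52 regions) and -0.62 for 400 bp (94 regions). Matched on the K36M density they were 0.0074 (33 regions) and 0.10 (59 regions), close to the members. The block-like narrow regions just left of the bounds count as outside here. The 400-bp region at 14995601 on chromosome 5, with 10.1 RPM per kb in K36M, is among those matched. How many others are was not counted. Choosing regions by the level of a library shifts their ratio, and the table itself was built on WT peaks.

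Closely spaced regions did not all behave like the blocks. The sole other stretch of at least 10 regions with gaps of up to 2000 bp lies on chromosome 11, 96051001 to 96067400, and was nearly covered (96.3%). Its regions were wider, up to 9800 bp, and their median level was 4.87 RPM per kb (WT) and 1.85 (K36M). The 9 long runs inside the blocks had medians of 7.62 to 12.1 (WT) and of at least 7.41 (K36M). K36M was at least 2-fold lower at each of its 10 regions, from 0.972 against 0.412 RPM in the 200-bp piece at 96063801 to 15.0 against 7.32 RPM in the 9800-bp piece at 96053801. Its summed ratio was 0.392 (interval 0.354 to 0.434), whereas those 9 runs had ratios between 0.799 and 1.19. The blocks were drawn around closely spaced regions of nearly equal level, so this contrast in ratio describes the choice.

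Because members and the remaining regions differed in ratio, the scaling of the libraries was examined. If values are exactly reads per 1000000, the value of a read in each library implies that K36M was sequenced 1.06 times as deeply as WT. The members' reads stood in a ratio of 1.07 and the reads of all other regions in a ratio of 0.650. Members took 0.176% of the WT reads and 0.177% of the K36M reads. Members were chosen for nearly equal levels on the deposited scale, so setting their sums equal had to change little and supports no scale. The factor was 1.01, and the median log2 ratio outside went from -0.75 to -0.76, with K36M lower at 89.4% of those 5759 regions and by at least 1.5-fold at 59.5%.

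A scale taken from a single block gave other sizes with the same direction of the median. Each block was chosen for nearly equal levels on the deposited scale, so the shared direction describes the choice and supports no scale. Setting the chromosome 8 block equal gave a median of -0.80 outside, chromosome 11 gave -0.64, chromosome 5 gave -0.96, chromosome 17 gave -0.43 and chromosome 4 gave -1.46. Levels were then at least 1.5-fold lower at 41.2% of the outside regions (chromosome 17) to 92.7% (chromosome 4), and lower by any amount at 74.6% to 99.1%. Centring on the median of all regions instead left the outside regions at -0.10 and put the median member 1.58-fold higher in K36M. An equal level in the blocks fixes the scale only if the blocks themselves are equal in both cell lines before any antibody is added, and that was not tested.

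**Figure D4:**
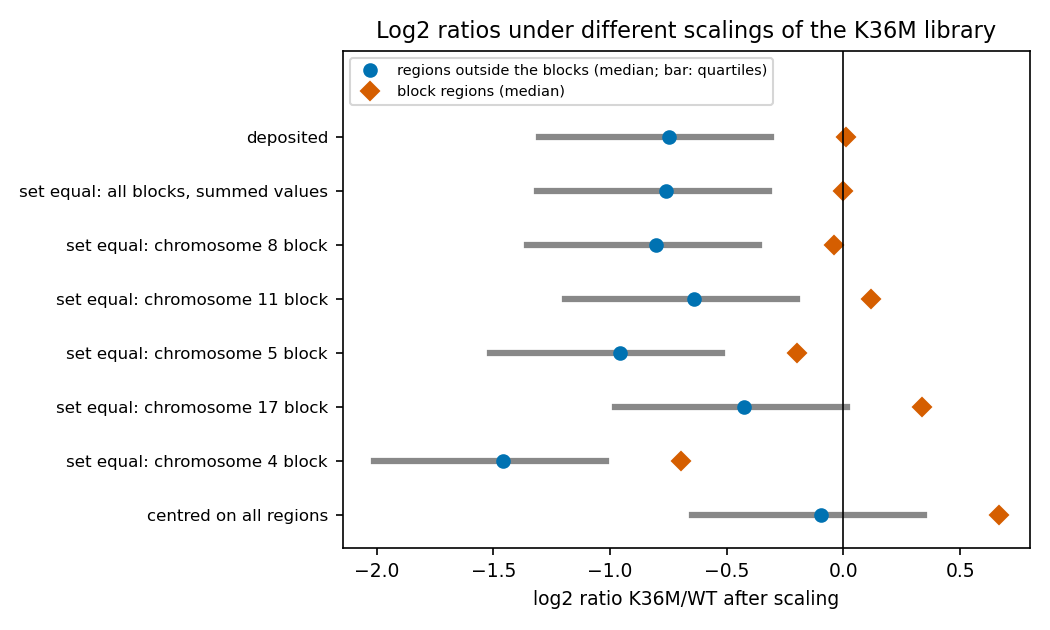
Median log2 ratio of K36M to WT (x axis) of the regions outside the blocks (circles, with bars from the lower to the upper quartile) and of the block regions (diamonds), for each scaling of the K36M library on the y axis. The circles lie between -1.46 and -0.43 when a block is set equal, and at -0.10 when all regions are centred.

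Set side by side, the members differed from the broad regions outside in width, density, spacing and ratio, and in the small spread of their ratios. Level, spacing and ratio were part of how the members were chosen, so these differences describe the choice. Density was also not matched for width in that comparison. Copy number of these stretches in the 2 cell lines, mappability and input level were not measured here, so binding and stacked reads cannot be told apart from these values alone.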

How the data were processed

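The table holds 6371 regions on build mm9 with a value for each of the 2 Ring1b ChIP-seq libraries. Per the submitters' processing notes, Bowtie 1.0.0 was used. Not given in the sources used here are the peak caller, its settings and the way reads were filtered and counted. How reads that match several places were placed could change every value in the blocks. The deposited columns are headed RPKM, but all 12742 values are whole multiples of 0.0335 (WT) or 0.0317 (K36M) within 0.01 reads whatever the width, so the authors' values were read as RPM. Starts are printed counted from 1.

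Whole reads gave exact Clopper-Pearson 95% intervals of the ratio, conditional on the total. The interval was tested on simulated data with independent reads, which does not cover reads that share a molecule. With 1 library per form there was no test, and a 1.5-fold ratio stands in for a call. Log2 ratios used a pseudocount of 0.1 RPM, which understates changes of low regions. No filter on low values was applied. In each block the named regions are the densest in WT, the widest, and those with the lowest and highest log2 ratio among regions at or above the block's median mean level; in blocks of 10 or fewer regions all are named. The members, lists and comparisons were chosen with earlier results of these data known. Python 3.11.15, numpy 2.4.6, pandas 2.3.3, scipy 1.17.1 and matplotlib 3.10.9 were used. Alternatives covered pseudocount, low values, width, merging, centring, fold and scaling.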

Additional observations from a re-analysis of the deposited data

How the results depend on the processing

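Of 33 alternatives, 16 left the value within its counting or order-statistic interval, or a count within 1.5 times. The median log2 ratio of the members, 0.011, became 0.66 when centred on all regions and -0.077 without the chromosome 8 block. It stayed near 0 with pseudocounts of 1 and 0.01, without 161 members of low level, with values divided by width, with touching regions merged into 100 stretches, and with 20 regions within 100 kb of a bound added. Of the counts past 1.5-fold (12 lower, 10 higher), a fold of 2 left 0 lower and 1 higher, the counting interval gave 31 and 29, and centring gave 0 and 365. The ratio of the chromosome 8 block was 1.05 as the median of its ratios. With the blocks set equal, the outside median of -0.76 became -0.96 (chromosome 5), -0.80 (chromosome 8), -0.64 (chromosome 11), -0.43 (chromosome 17) and -1.46 (chromosome 4), -0.70 without chromosome 8, and -0.67 on unscaled reads. The WT level per kb, 10.2 for 200-bp and 400-bp members, was 9.74 over all widths. Leaving out chromosome 8, adding regions and using unscaled reads were chosen after the data were seen. Regions of few reads have wide intervals, and no alternative replaces a second library.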

Other observations

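The narrow regions outside the blocks that were densest in WT, above the level of most members, mostly had similar levels in both libraries. Those at the WT density of the blocks mostly did not. The densest set was chosen after its values were seen. Grouping is by WT level in a table built on WT peaks. At the K36M density of the members, the outside medians were 0.0074 (200 bp) and 0.10 (400 bp). Block-like narrow regions just left of the bounds count as outside in these sets. Of the 1363 outside regions of 200 or 400 bp, 31 had at least 20 RPM per kb in WT, on 13 chromosomes. Their median log2 ratio was 0.0040 (quartiles -0.21 and 0.17), and 23 of the 31 (74.2%) were within 1.5-fold. The median was -1.10 below 5 RPM per kb (577 regions), -1.17 from 5 to 10 (579) and -1.15 from 10 to 20 (176), where 23.7%, 28.7% and 33.5% were within 1.5-fold. The densest in WT was at chromosome 16, 18533201 to 18533400, with 41.7 (WT) and 35.5 (K36M) RPM per kb. The densest in K36M was at chromosome 10, 95540201 to 95540400, with 38.2 in WT and 62.8 in K36M. A pair of touching regions at chromosome 13, 85266601 to 85267000, held 27.1 and 20.8 RPM per kb (WT) and 36.5 and 32.3 (K36M). Of the 31, 6 were at least 1.5-fold lower, among them chromosome 9, 69787001 to 69787200, with 29.5 (WT) and 7.77 (K36M) RPM per kb. Among members, 8 reached 20 RPM per kb in WT.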
